A study of Mus musculus with 6 samples.

Results

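The 78 genes described here carry the symbols of mitochondrial ribosomal proteins and were chosen by symbol among the 12629 genes that the authors' table names. They are all genes whose name in the authors' table begins with Mrpl and a digit (49 genes, here called the large subunit) or with Mrps and a digit (29 genes, here called the small subunit), of 56923 genes in the count table; for 3 Mrps symbols, described below, the protein lies elsewhere. mRNA was sequenced from the hearts of 3 WT mice and 3 mice labeled as mutant, all aged 12 weeks and each giving 1 library; the study's methods describe the tissue as left ventricle from mice perfused with phosphate-buffered saline. In the study, the mutants are Lztr1R409C/+ mice, heterozygous for the knock-in allele R409C of Lztr1, an adaptor of a ubiquitin ligase that acts on RAS proteins. The allele was made with CRISPR/Cas9, is carried in every cell, and was backcrossed to C57BL/6J; the study's methods state that phenotypes of the mutation were assessed in males. The study's methods name the NEBNext Ultra II RNA Library Prep Kit. How mRNA was selected and whether the libraries kept the strand are not stated in the sources used here. The study models Noonan syndrome, in which the heart can be hypertrophied, and the comparison below asks whether transcripts of the mitochondrial ribosome differ between these hearts.

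Mitochondria keep their own ribosome, which translates only the few mRNAs made from mitochondrial DNA, all for subunits of the respiratory chain and ATP synthase. Its rRNAs are encoded in mitochondrial DNA, whereas every protein of it is encoded in the nucleus, made in the cytosol, and imported. The small subunit binds the mRNA and reads the codons, and the large subunit joins the amino acids. Many of its proteins have bacterial homologs, and others occur only in mitochondrial ribosomes. The heart depends on oxidative phosphorylation, and defects of several of these proteins cause cardiomyopathy in humans.

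Total counts were between 66130887 and 72641124 per mouse, and the members had between 317 and 12515 counts in each library, so all 78 passed the filter on low counts and none entered through the group in which it was high. Levels below are CPM, counts scaled to the size of the library, after TMM normalization, a factor per library that aligns the bulk of the genes, and changes are log2 fold changes of Lztr1R409C/+ over WT mice. The libraries differed in composition. Mitochondrially encoded genes took 36.5%, 37.3%, and 13.85% of counts in WT replicates 1, 2, and 3 and 45.4%, 35.02%, and 29.7% in the mutant replicates, and WT replicate 3 had the highest TMM factor, 1.39, against 0.800 to 1.10 elsewhere. The cardiomyocyte markers were abundant in every mouse, with Myh6 between 6330 and 17350 CPM, while of 4 atrial markers only Myl4, at most 0.570 CPM, and Nppa, the hypertrophy-responsive natriuretic peptide gene, passed the filter. Lztr1 itself was at 24.2, 24.2, and 22.2 CPM in WT and 23.9, 27.9, and 25.4 CPM in mutant mice, which does not check the labels, since a single-base knock-in leaves the transcript countable. In bulk tissue, fewer cells of a type and less RNA per cell cannot be told apart.

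Transcripts of the mitochondrial ribosome were at nearly the same level in both genotypes. The summed level of the 78 members was 2456, 2389, and 2492 CPM in WT and 2717, 2339, and 2642 CPM in Lztr1R409C/+ mice, that is, 2445 ± 52.2 and 2566 ± 200.1 CPM (SD, n = 3 each). Mutant replicates 1 and 3 were above every WT mouse and mutant replicate 2 was below every one, so the groups overlapped. Scaled by library totals alone, the sums were 2261, 2160, and 3460 CPM in WT and 2173, 2302, and 2896 CPM in mutant mice, overlapping again, with WT replicate 3 highest. The large subunit summed to 1676, 1632, and 1711 CPM in WT and 1874, 1584, and 1800 CPM in mutant mice. The small subunit summed to 780.4, 757.2, and 780.4 CPM in WT and 843.0, 755.1, and 842.5 CPM in mutant mice. The ratio of both sums, large to small, was 2.17 ± 0.024 in WT and 2.15 ± 0.064 in mutant mice (SD, n = 3 each), a difference smaller than the spread among the mutants.

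With edgeR's quasi-likelihood test and Benjamini-Hochberg adjustment over 17212 genes, 0 of the 78 members passed an adjusted p of 0.05, where 7 genes, or 0.0407%, passed in all. The smallest adjusted p of a member was 0.354, and DESeq2 also called 0. At an unadjusted p under 0.05, 5 members, or 6.41%, were higher, against 5.77% of all genes, and 3 members, or 3.85%, were lower, against 2.86% of all genes. In 8 members, or 10.3%, every mutant mouse was above every WT mouse, against 8.3% of all genes, and in 3 members, or 3.85%, every mutant mouse was below, against 7.23%. These shares lie near the background. The count of 5 higher members rested on single mice: it was 3 without WT replicate 3, 2 without mutant replicate 1, 1 without mutant replicate 3, and 8 without mutant replicate 2. The count of 3 lower members was 0 without WT replicate 3 or mutant replicate 2, and 1 without WT replicate 2 or mutant replicate 1. The log2 fold change was under 0.2 in size in 50 members and under 0.5 in 74. The test had limited precision for single genes: the median half-width of the 95% interval was 0.40 on the log2 scale, and the interval lay within 1 of zero in 72 members and within 0.5 in 39.

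**Figure D1:**
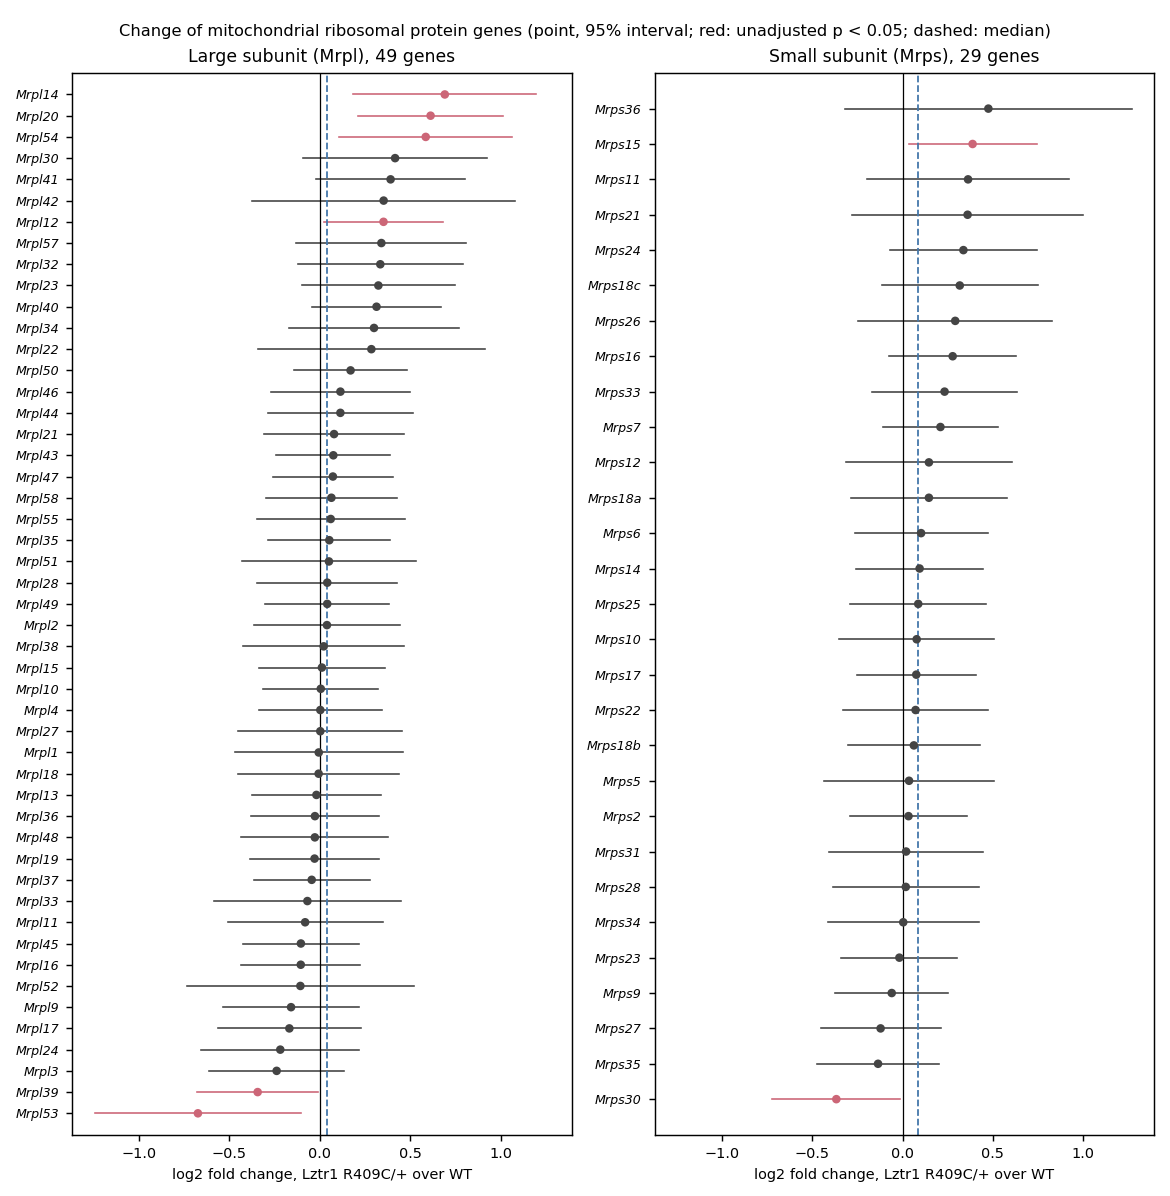
Log2 fold change (x axis, Lztr1R409C/+ over WT) of each of the 49 large subunit genes and 29 small subunit genes, with its 95% interval from edgeR's quasi-likelihood fit. The 8 members with an unadjusted p under 0.05 are in red, none of which passed adjustment, and dashed lines at 0.041 and 0.087 mark the medians.

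The fitted change was above zero in 55 of 78, or 70.5%, where 51.4% of all genes were above zero. It was above zero in 31 of 49 large subunit genes, with a median of 0.041, and in 24 of 29 small subunit genes, with a median of 0.087, beside a median of 0.012 over all genes. Both medians are small beside the intervals of single genes. Single mice moved them: the large subunit median was 0.025 without WT replicate 1, 0.026 without WT replicate 2, 0.070 without WT replicate 3, and 0.085 without mutant replicate 2, and the small subunit median ran from 0.059 without mutant replicate 1 to 0.13 without WT replicate 3 or mutant replicate 2. They also moved with the scaling: when libraries were scaled by their total alone, 14 large and 12 small subunit genes were above zero and the medians were -0.13 and -0.069, while the median of all genes moved to -0.14. Relative to the median of all genes, the large subunit was 0.029 higher with TMM and 0.019 higher with totals, and the small subunit 0.074 and 0.075 higher. A correction for gene length put the large subunit median at -0.026, with 22 of 49 above zero beside 49.2% of all genes. A correction for GC content put it at 0.011, with 26 of 49 above zero, and the small subunit median at 0.098, with 22 of 29 above zero. Upper quartile scaling put the medians at 0.085 and 0.13, with 37 of 49 and 25 of 29 above zero, and the median of all genes at 0.055. The mice within a group differed. Mutant replicates 1 and 3 had the highest level of the 6 mice in 22 and 26 of 78 members, or 28.2% and 33.3%, against 21.1% and 21.2% of all genes, and mutant replicate 2 in 2 members, or 2.56%, against 11.7%. WT replicates 1, 2, and 3 had the lowest level in 9, 15, and 24 members, and WT replicate 3 was also highest in 20; its shares were 30.8% lowest and 25.6% highest, against 20.9% and 21.5% of all genes.

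**Figure D2:**
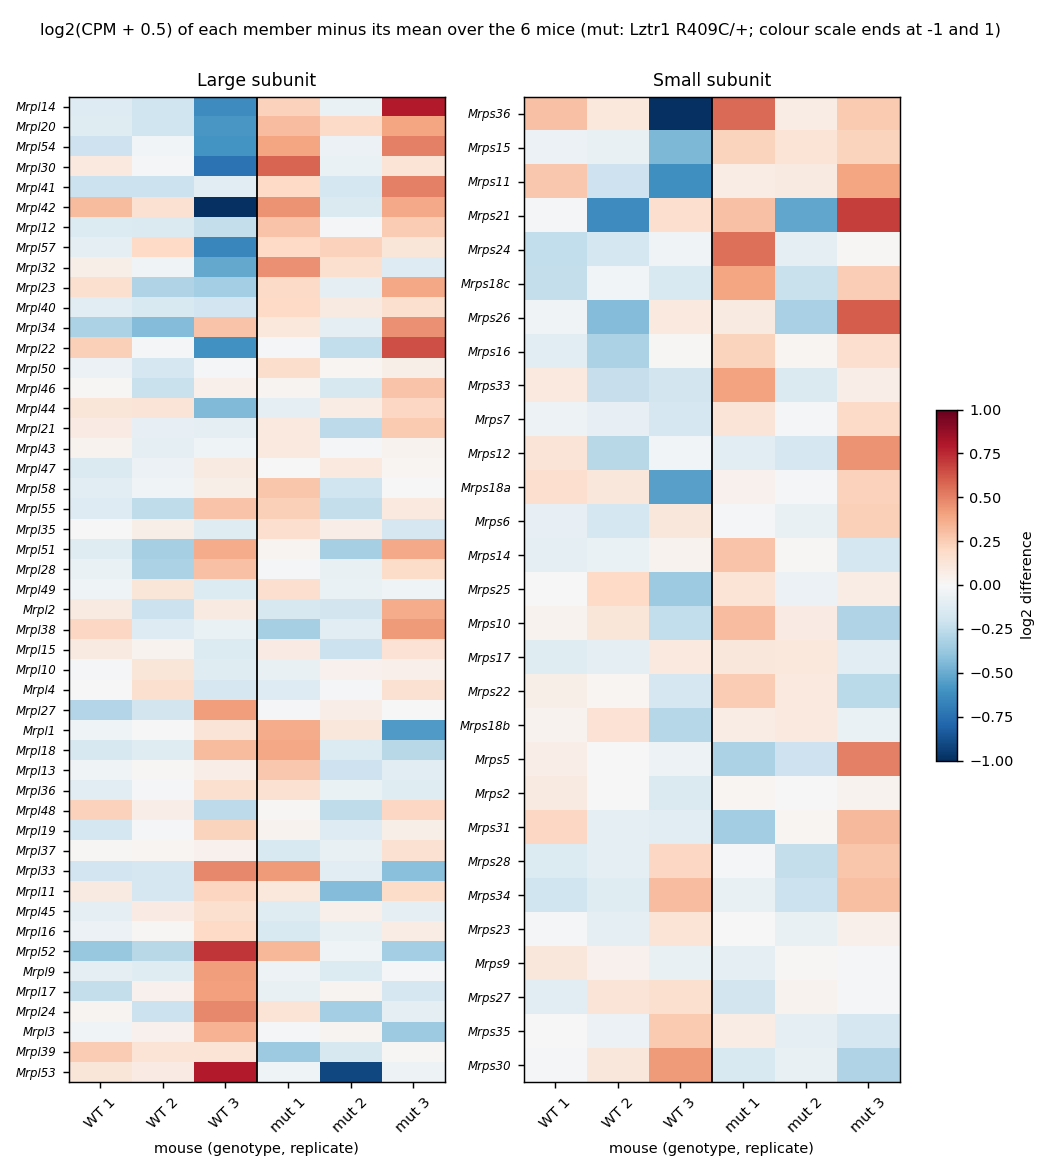
Log2(CPM + 0.5) of each member (rows, ordered by log2 fold change within the subunit) in each of the 6 mice (columns), minus the gene's mean over the mice. Red is above and blue below the mean, the pale column of mutant replicate 2 contrasts with replicates 1 and 3, and WT replicate 3 holds the strongest colors of the WT mice, as in Mrpl42 and Mrps36.

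Among the large subunit proteins with bacterial homologs, Mrpl20 had the smallest p of all members. Mrpl20 (ENSMUSG00000029066.13, chr4:155887335-155894435, GRCm39) encodes a homolog of bacterial L20, an RNA-binding protein needed for assembly of the large subunit. It was at 10.3, 9.74, and 7.36 CPM in WT and 14.02, 12.9, and 14.97 CPM in mutant mice. Every mutant mouse was above every WT mouse, and the level was 1.53-fold higher (log2 fold change 0.61, SE 0.18, adjusted p = 0.354 by edgeR). Mrpl14 (ENSMUSG00000023939.8, chr17:45996373-46010480) encodes the homolog of L14, a protein at the interface of the subunits, and had the largest positive change. It was at 14.7, 13.98, and 10.3 CPM in WT and 19.0, 15.4, and 28.4 CPM in mutant mice. The groups did not overlap, but mutant replicate 3 stood far above the other mutants, and the log2 fold change was 0.69 (SE 0.23, adjusted p = 0.453 by edgeR) and 0.41 without that mouse. Of its exon bases, 23.7% are also exon of Tmem63b on the opposite strand, which was at 64.9 to 108.4 CPM, above Mrpl14 itself.

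The stalk of the large subunit recruits the translation factors, and none of its 3 genes described here passed adjustment. Mrpl12 (ENSMUSG00000039640.8, chr11:120375430-120381396), which encodes the stalk protein L7/L12 and is also reported to bind the mitochondrial RNA polymerase, was at 69.2, 69.0, and 64.7 CPM in WT and 92.8, 75.2, and 91.0 CPM in mutant mice. All mutants were above all WT mice, the lowest mutant by a small margin, with a log2 fold change of 0.35 (SE 0.15) and adjusted p = 0.554 by edgeR. Mrpl10, which encodes the protein that anchors L7/L12, was at 38.3, 42.1, and 35.4 CPM in WT and 36.6, 39.7, and 40.0 CPM in mutant mice. Its level was 38.6 ± 3.34 against 38.8 ± 1.90 CPM (SD, n = 3 each), and the sign of its change depended on the scaling. Mrpl11, for the protein at the base of the stalk, was at 20.04, 16.7, and 21.9 CPM in WT and 20.3, 13.8, and 21.4 CPM in mutant mice, with a log2 fold change of -0.081 (SE 0.20), which turned to 0.0077 without WT replicate 3 and to 0.085 without mutant replicate 2.

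Among the large subunit proteins found only in mitochondria, Mrpl53 was lower and Mrpl54 higher. Mrpl53 (ENSMUSG00000030037.10, chr6:83085887-83088572) was at 19.6, 19.1, and 31.6 CPM in WT and 17.4, 9.30, and 17.4 CPM in mutant mice. Every mutant was below every WT mouse, although mutant replicates 1 and 3 were close to WT replicates 1 and 2. The log2 fold change was -0.67 (SE 0.26, adjusted p = 0.515 by edgeR), the most negative of all members, and became -0.40 without WT replicate 3 and -0.44 without mutant replicate 2. Mrpl54 (ENSMUSG00000034932.5, chr10:81097082-81102768) was at 8.14, 9.24, and 6.09 CPM in WT and 12.6, 9.04, and 13.6 CPM in mutant mice. Mutant replicate 2 lay within the WT range, and the log2 fold change was 0.59 (SE 0.22, adjusted p = 0.495 by edgeR). Of the exon bases of Mrpl54, 94.4% are also exon of Matk on the opposite strand in GENCODE; Matk was at 0.217 to 0.800 CPM over the 6 mice, far below Mrpl54. Mrpl39 (ENSMUSG00000022889.8, chr16:84502276-84533793), which encodes a protein related to threonyl-tRNA synthetase, was at 45.2, 41.7, and 41.7 CPM in WT and 29.3, 33.8, and 38.2 CPM in mutant mice. The groups did not overlap, and the log2 fold change was -0.34 (SE 0.15, adjusted p = 0.568 by edgeR).

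The other large subunit members named for a small p were Mrpl41 and Mrpl40. Mrpl40 was at 9.65, 9.35, and 9.11 CPM in WT and 12.1, 11.2, and 11.7 CPM in mutant mice, with little spread within either group. It was 1.24-fold higher (log2 fold change 0.31, SE 0.16) with adjusted p = 0.628 by edgeR. Mrpl41 was at 14.9, 14.9, and 16.2 CPM in WT and 20.1, 15.4, and 24.9 CPM in mutant mice, where replicate 2 lay within the WT range. Of its exon bases, 42.2% are also exon of Dph7 on the opposite strand, itself at 2.24 to 3.88 CPM. Its change of 0.39 was 0.21 without mutant replicate 3. With library totals, the changes were 0.24 for Mrpl41, 0.16 for Mrpl40, and 0.20 for Mrpl12, and the length correction gave 0.21 for Mrpl40.

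**Figure D3:**
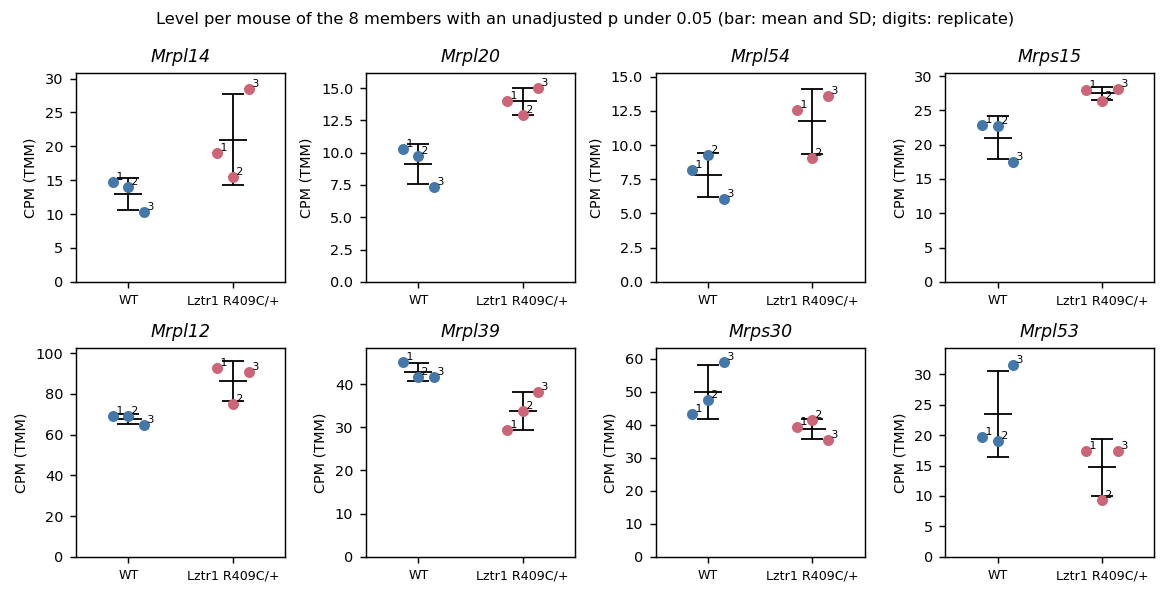
CPM of the 8 members with an unadjusted p under 0.05, in each mouse (points, with the replicate number), with the mean and SD of 3 mice per genotype. All mutants lie above all WT mice in Mrpl14, Mrpl20, Mrps15, and Mrpl12 and below them in Mrpl39, Mrps30, and Mrpl53, and in Mrpl54 mutant replicate 2, at 9.04 CPM, lies below WT replicate 2, at 9.24 CPM.

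In the small subunit, Mrps15 had the smallest p. Mrps15 (ENSMUSG00000028861.14, chr4:125940711-125950292), homolog of the rRNA-binding protein S15, was at 22.9, 22.7, and 17.4 CPM in WT and 27.9, 26.4, and 28.1 CPM in mutant mice. The groups did not overlap, and its level was 1.31-fold higher (log2 fold change 0.39, SE 0.16), with adjusted p = 0.551 by edgeR. Mrps24, which encodes the homolog of S3, was at 30.9, 32.6, and 35.9 CPM in WT and 54.1, 34.4, and 37.1 CPM in mutant mice, and its change of 0.34 rested mainly on mutant replicate 1: without it, the value was 0.10. Mrps16, homolog of S16, was at 17.1, 14.7, and 18.5 CPM in WT and 21.6, 18.7, and 20.7 CPM in mutant mice, without overlap but with a margin of under 1 CPM, and adjusted p = 0.669 by edgeR. Mrps7, homolog of S7, an early-assembling protein of the small subunit head, was at 29.1, 28.5, and 26.9 CPM in WT and 33.2, 29.9, and 34.6 CPM in mutant mice. The groups did not overlap and the log2 fold change was 0.21 (SE 0.15, adjusted p = 0.734 by edgeR), but 0.063 with library totals, 0.079 with the length correction, and 0.12 with the GC correction. Of its exon bases, 57.8% are also exon of Mif4gd on the opposite strand, at 14.5 to 20.2 CPM. Mrps18c, whose exons share 84.3% of their bases with Abraxas1 on the opposite strand, itself at 6.39 to 10.1 CPM, was at 9.32, 10.9, and 9.92 CPM in WT and 14.8, 9.44, and 13.3 CPM in mutant mice, with overlapping groups. Its change of 0.32 was 0.17 without mutant replicate 1 and 0.48 without mutant replicate 2. With library totals, whose median over all genes is -0.14, the changes were 0.15 for Mrps18c, 0.092 for Mrps16, and 0.13 for Mrps24, and the length correction gave 0.19 for Mrps24.

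In 3 members the symbol names the small subunit but the protein lies elsewhere. Mrps30 and Mrps18a encode proteins of the large subunit, and Mrps36 encodes a component of the 2-oxoglutarate dehydrogenase complex. Mrps30 (ENSMUSG00000021731.11, chr13:118513808-118523838) was at 43.3, 47.5, and 59.1 CPM in WT and 39.3, 41.5, and 35.5 CPM in mutant mice. It was the only small subunit symbol lower without overlap of the groups, with a log2 fold change of -0.37 (SE 0.16, adjusted p = 0.567 by edgeR) that became -0.23 without WT replicate 3 and -0.57 with library totals. Mrps36 was at 31.4, 27.6, and 10.1 CPM in WT and 38.2, 26.9, and 30.8 CPM in mutant mice. Its change of 0.47 (SE 0.35) was the largest of the Mrps symbols and rested on the low WT replicate 3, without which it was 0.11; without WT replicate 1 it was 0.76. Mrps18a was at 32.1, 30.9, and 19.4 CPM in WT and 29.4, 28.1, and 33.6 CPM in mutant mice, and without WT replicate 3 its change of 0.15 became -0.055. With the genes sorted by where the protein lies, 22 of 26 small subunit genes were above zero with a median of 0.082, and 32 of 51 large subunit genes with a median of 0.041.

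For the sort by origin, the subunit was again taken from the symbol, so that Mrps30 counts with the small subunit. Mrpl55, Mrps18a, Mrps18b, Mrps28, and Mrps36 were placed in neither class, and each had a change above zero. The small subunit genes with bacterial homologs were above zero in 14 of 15, with a median of 0.15. Those specific to mitochondria, Mrps30 included, were above zero in 6 of 10, with a median of 0.012. In the large subunit, the corresponding values were 17 of 29 with a median of 0.0052 and 13 of 19 with a median of 0.064. The order of both classes was thus opposite in the subunits, and no difference between these classes was tested. Scaled by library totals, the median over both subunits was -0.10 for the genes with bacterial homologs and -0.092 for those specific to mitochondria. With the length correction the medians were 0.037, with 27 of 44 above zero, and -0.028, with 13 of 29 above zero, where TMM gave 31 and 19. They ran from 0.046 to 0.13 and from 0.0015 to 0.11 over the fits that each leave out 1 mouse.

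Mutations in MRPL3, MRPL44, MRPS14, and MRPS22 cause cardiomyopathy in humans, and their mouse genes overlapped between the genotypes here. Mrpl3, next to the catalytic center, was at 90.0, 95.3, and 117.8 CPM in WT and 91.4, 93.9, and 71.6 CPM in mutant mice, with a log2 fold change of -0.24 (SE 0.17, adjusted p = 0.743 by edgeR) that became -0.12 without WT replicate 3 or mutant replicate 3 and -0.45 with library totals. Mrpl44 was at 33.9, 34.1, and 22.8 CPM in WT and 29.3, 32.8, and 36.2 CPM in mutant mice, so that only WT replicate 3 stood apart. Mrps14 was at 32.5 ± 1.56 CPM in WT and 34.7 ± 5.78 CPM in mutant mice, and Mrps22 at 12.4 ± 1.04 and 13.0 ± 2.42 CPM (SD, n = 3 each). Of the exon bases of Mrps14, 25.4% are also exon of Cacybp on the opposite strand. Cacybp was at 35.4 to 65.4 CPM, above Mrps14 in each mouse. The 95% intervals of the 4 genes ran from -0.61 to 0.14 for Mrpl3, -0.29 to 0.51 for Mrpl44, -0.26 to 0.45 for Mrps14, and -0.33 to 0.47 for Mrps22.

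Although the proteins stand in the ribosome in equal numbers, apart from the stalk, their transcripts did not. Divided by annotated exon length, the WT levels of the members ran from 1.23 to 53.2 CPM per kb. Mrps23, a mitochondria-specific protein of the small subunit, was highest at 52.2, 49.5, and 58.1 CPM per kb in WT and 52.9, 50.03, and 54.9 CPM per kb in mutant mice. Mrpl34, Mrpl18, and Mrpl28 followed with WT means of 37.6, 34.9, and 28.7 CPM per kb. The WT ranges of these 3 genes overlapped, and that of Mrps23 did so with Mrpl34, at 30.1 to 49.9 CPM per kb, by a narrow margin. Mrps24 and Mrps34 were the next highest of the small subunit, with 15.6 and 13.7 CPM per kb. Of the exon bases of Mrps34, 86.0% are also exon of Mapk8ip3 on the opposite strand, at 63.9 to 79.9 CPM and above Mrps34 itself, 23.8% of those of Mrpl18 are also exon of Tcp1 on the opposite strand, at 123.5 to 208.9 CPM and above Mrpl18 itself, and 81.4% of those of Mrpl34 are also exon of Gm64263. The lowest of the small subunit were Mrps10 with 1.23 and Mrps11 with 1.72 CPM per kb, and the lowest of the large subunit were Mrpl54 with 1.74 and Mrpl48 with 2.35 CPM per kb. Without the division, Mrpl42 had the highest mean level in WT, at 164.6, 147.0, and 59.3 CPM, and was at 181.3, 119.6, and 172.7 CPM in mutant mice. WT replicate 3 lay far below the other 5, and in that mouse other members, such as Mrpl3 at 117.8 CPM, were higher. The length counts every annotated exon of a gene, so genes with long rarely used exons read low on this scale. The median coefficient of variation of the members was 13.1% in WT and 15.1% in mutant mice, against 17.5% and 19.4% over all genes. This difference was not tested, and some members, such as Mrps36, lay above the median of all genes. The members had at least 317 counts in each library, whereas all genes include less abundant ones, and the 2 sets were not matched for level.

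The change was related to gene length among the members as among all genes. Spearman's rho between exon length and log2 fold change was -0.28 over the 78 members, -0.24 over the large subunit, and -0.44 over the small subunit, beside -0.23 over 17127 genes; these are correlations across genes of the same 6 libraries and a description only. The 39 shorter members had a median change of 0.10, with 33 above zero, and the 39 longer members a median of 0.033, with 22 above zero.

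**Figure D4:**
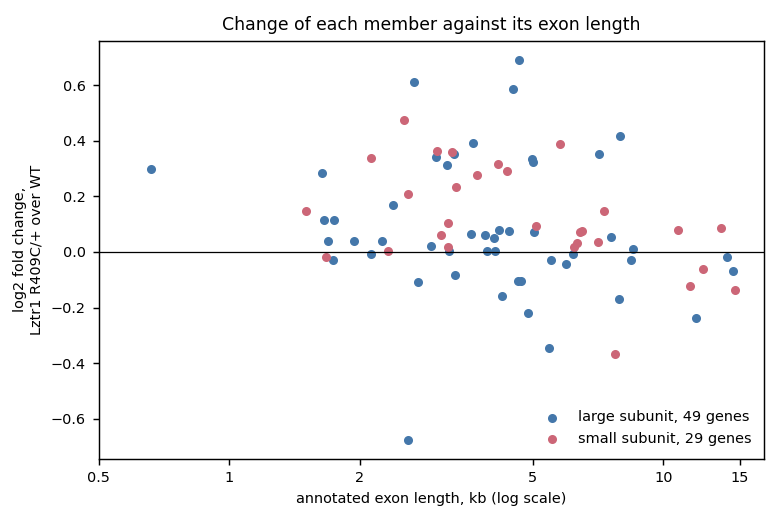
Log2 fold change (y axis, Lztr1R409C/+ over WT) of each member against its annotated exon length in kb (x axis, log scale), with the large subunit in blue and the small subunit in red. Of the 39 genes at or below 4168 bases, the median length of the members, 33 lie above zero.

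The start regions of the members were searched for sequence features that the choice by symbol did not use; no enrichment was tested, and each of the ETS, YY1, and NRF1 motifs was absent from most windows. RefSeq windows on GRCm38.p6, from 250 bases before to 50 bases after the annotated start, were found for 69 of 78 members (75 windows). On both strands, 5 motifs were searched by their exact letters: CCGGAAG, bound by ETS factors such as GABPA; CGCATGC, the core of the site of NRF1; ATGGCGG, bound by YY1; CACGTG, the E-box; and GGGCGG, bound by SP1. CCGGAAG stood in 26 of 75 windows, or 34.7%, against 8.86% of all 32851 windows, and ATGGCGG in 13, or 17.3%, against 4.05%. CGCATGC stood in 8 windows, or 10.7%, against 3.58% of all. CACGTG, in 9.33% against 7.15%, and GGGCGG, in 52% against 35.7%, were closer to the background. Windows of the members were also richer in G and C, with a median of 58.7% against 52.7%, and held a median of 21 CpG against 7, and how far this composition raises the matches was not tested. In 2 of the 75 windows, matches of different motifs shared bases. The 26 genes with CCGGAAG had a median log2 fold change of 0.068, with 17 above zero, and the 43 without it a median of 0.076, with 32 above zero. For CGCATGC, the 8 genes with it had a median of -0.032, with 4 above zero. The 61 genes without CGCATGC had a median of 0.076, with 45 above zero. Neither difference was tested.

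The 150 bases before the start are printed for the members with the smallest p in each direction in the large subunit, to show how unlike their start regions are. Capitals mark matches to any of the 5 motifs. Within the printed stretch, Mrpl20 has only an E-box, Mrpl14 only SP1 letters (the first 4 capitals end a match that begins further upstream), Mrpl39 a pair of overlapping NRF1 matches, 1 on each strand, and Mrpl53 a pair of ETS matches, the second on the opposite strand. Beyond it, the Mrpl53 window also holds a YY1 match, 4 bases after the start, and the Mrpl14 window holds 5 SP1 matches in all. The windows are chr4:155802628-155802927, plus strand, for Mrpl20; chr17:45686099-45686398, plus strand, for Mrpl14; chr6:83108858-83109157, plus strand, for Mrpl53; and chr16:84735195-84735494, minus strand, for Mrpl39, all on GRCm38.p6.
Mrpl20: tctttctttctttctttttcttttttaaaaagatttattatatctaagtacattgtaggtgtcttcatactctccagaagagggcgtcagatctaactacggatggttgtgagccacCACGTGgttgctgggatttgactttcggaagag
Mrpl14: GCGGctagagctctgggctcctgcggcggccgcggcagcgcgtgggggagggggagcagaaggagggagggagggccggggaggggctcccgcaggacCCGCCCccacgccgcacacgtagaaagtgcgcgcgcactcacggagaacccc
Mrpl53: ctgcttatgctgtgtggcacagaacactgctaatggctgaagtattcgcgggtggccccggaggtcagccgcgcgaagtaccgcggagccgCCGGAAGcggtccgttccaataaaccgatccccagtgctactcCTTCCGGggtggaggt
Mrpl39: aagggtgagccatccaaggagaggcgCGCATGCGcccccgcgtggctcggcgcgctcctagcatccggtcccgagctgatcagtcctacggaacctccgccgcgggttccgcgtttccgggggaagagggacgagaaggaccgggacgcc

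The remaining proteins of the mitochondrial ribosome carry other symbols, and none of the 5 passed adjustment. Chchd1, a small subunit protein, was at 21.97, 23.9, and 19.7 CPM in WT and 39.9, 22.3, and 27.5 CPM in mutant mice, with a log2 fold change of 0.45 (SE 0.21) and adjusted p = 0.576 by edgeR, and mutant replicate 2 lay within the WT range. Without mutant replicate 1, its change was 0.18. Gadd45gip1 was at 27.3, 18.3, and 18.1 CPM in WT and 22.96, 19.2, and 37.75 CPM in mutant mice. Mutant replicates 1 and 2 lay within the WT range, and its change of 0.33 was -0.0087 without mutant replicate 3. Aurkaip1 had a change of 0.27, or 0.11 without WT replicate 3, and Dap3, a GTP-binding protein of the small subunit, and Ptcd3 had changes of -0.21, or -0.12 without WT replicate 3, and -0.28. All 5 overlapped between the genotypes.

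Genes that build and serve the ribosome had medians below zero with TMM, where those of the members were 0.041 and 0.087; no difference between the lists was tested. Among 25 assembly factors, 9 were above zero with a median of -0.095. At an unadjusted p under 0.05, 2 of the 25 were lower, where 2.86% of all genes were. The median was -0.049 without mutant replicate 3, -0.046 without WT replicate 3, and -0.15 without WT replicate 1, and 0 had an unadjusted p under 0.05 without mutant replicate 2. The smallest p was that of Mettl17, which supports assembly of the small subunit, at 12.0, 11.8, and 11.8 CPM in WT and 8.09, 7.68, and 9.51 CPM in mutant mice, with a log2 fold change of -0.49 (SE 0.17) and adjusted p = 0.466 by edgeR. Among 15 translation factors, 3 were above zero with a median of -0.063, and 0 passed in either direction at an unadjusted p under 0.05. Gfm1, the elongation factor G, was at -0.32, or -0.18 without mutant replicate 1. Without overlap of the groups, 3 of the 15 were lower and 0 higher, where 7.23% and 8.3% of all genes were. Of the genes that charge mitochondrial tRNAs, 1 of 20 was above zero (Gatc, at 0.12), with a median of -0.27. At an unadjusted p under 0.05, 2 of the 20 were lower, where 2.86% of all genes were. In 7 of the 20, every mutant mouse was below every WT mouse, as in 7.23% of all genes. Without WT replicate 3, Gatc was at -0.083, and without mutant replicate 1 the median was -0.18 and 0 had an unadjusted p under 0.05. Among 20 genes of mitochondrial transcription and RNA handling, 5 were above zero, with a median of -0.12. At an unadjusted p under 0.05, 1 of the 20 was higher and 3 of the 20 lower, where 5.77% and 2.86% of all genes were. Their median was -0.22 without mutant replicate 2 and -0.034 without mutant replicate 3. The partners Lrpprc and Slirp, which together stabilize mitochondrial mRNAs, stood at opposite ends, with log2 fold changes of -0.77 (adjusted p = 0.290) and 1.08 (adjusted p = 0.457) by edgeR, both without overlap. Among 9 regulators of mitochondrial biogenesis, 3 were above zero, and Gabpa, the ETS factor, had a change of -0.26 (SE 0.14, adjusted p = 0.644 by edgeR). None of the genes in these lists passed adjustment. The medians of the assembly, translation factor, tRNA charging, transcription, and biogenesis lists were below zero under each scaling tried, from -0.018 to -0.43, and those of the members were also below zero with library totals, at -0.13 and -0.069, and for the large subunit with the length correction, at -0.026.

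The mRNAs that this ribosome translates, its rRNAs, and nuclear genes of complex I, which also holds subunits made by this ribosome, follow. The 13 mitochondrially encoded mRNAs were all above zero, with a median of 0.43, but none at an unadjusted p under 0.05. The median was 0.20 with the length correction and 0.27 with the GC correction, again with 13 above zero, but -0.041 without WT replicate 3, with 5 above zero, and 0.11 without mutant replicate 1. Their sum was 87730 CPM in WT replicate 3 against 382300 and 399500 CPM in the other WT mice, and 261800 to 546200 CPM in mutant mice. Both mitochondrial rRNAs, the RNA core of this ribosome, overlapped between the genotypes, at 0.17 for mt-Rnr1 and -0.031 for mt-Rnr2. Neither sign held with every mouse left out, since mt-Rnr1 was at -0.24 without mutant replicate 1, and mt-Rnr2 at -0.57 without that mouse and 0.23 without mutant replicate 3. The study's methods state that rRNA was left out, without naming the step or saying whether mitochondrial rRNA was meant. Among 37 nuclear genes of complex I, 28 were above zero with a median of 0.15. At an unadjusted p under 0.05, 3 of the 37 were higher and 1 of the 37 lower, where 5.77% and 2.86% of all genes were. With library totals, 18 were above zero and the median was -0.016. Without mutant replicate 1 the median was 0.052, and without mutant replicate 2 it was 0.22 and 10 had an unadjusted p under 0.05 in either direction. None passed adjustment. Ndufs6 and Ndufs1 had the smallest p in each direction, with changes of 0.71 (adjusted p = 0.446) and -0.52 (adjusted p = 0.470) by edgeR. Ndufs6 was at 39.6, 35.3, and 50.07 CPM in WT and 54.1, 52.85, and 97.3 CPM in mutant mice, and its change was 0.36 without mutant replicate 3, which stood far above the other mice.

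Transcripts of the cytosolic ribosomal proteins are given for comparison, and no difference from the members was tested. All 79 of them were above zero, with a median of 0.56, and 43 were higher at an unadjusted p under 0.05, beside 5.77% of all genes, though 0 passed adjustment. Rpl29 had the smallest unadjusted p, and its adjusted p of 0.215 by edgeR was shared by other genes of the list. Single mice moved these values: without mutant replicate 1, 72 were above zero, the median was 0.36, and 18 had an unadjusted p under 0.05, against 64 without mutant replicate 2. Their summed level was 8240, 7510, and 7965 CPM in WT and 14180, 8483, and 11070 CPM in mutant mice, with every mutant above every WT mouse. With library totals 75 of the 79 were above zero, with a median of 0.38, and the sums overlapped, since WT replicate 3 came to 11060 CPM against 8349 CPM in mutant replicate 2. Per 100 CPM of cytosolic ribosomal proteins, the mitochondrial ribosomal proteins came to 29.8, 31.8, and 31.3 CPM in WT and 19.2, 27.6, and 23.9 CPM in mutant mice, again without overlap, in which the denominator moved more than the members.

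**Figure D5:**
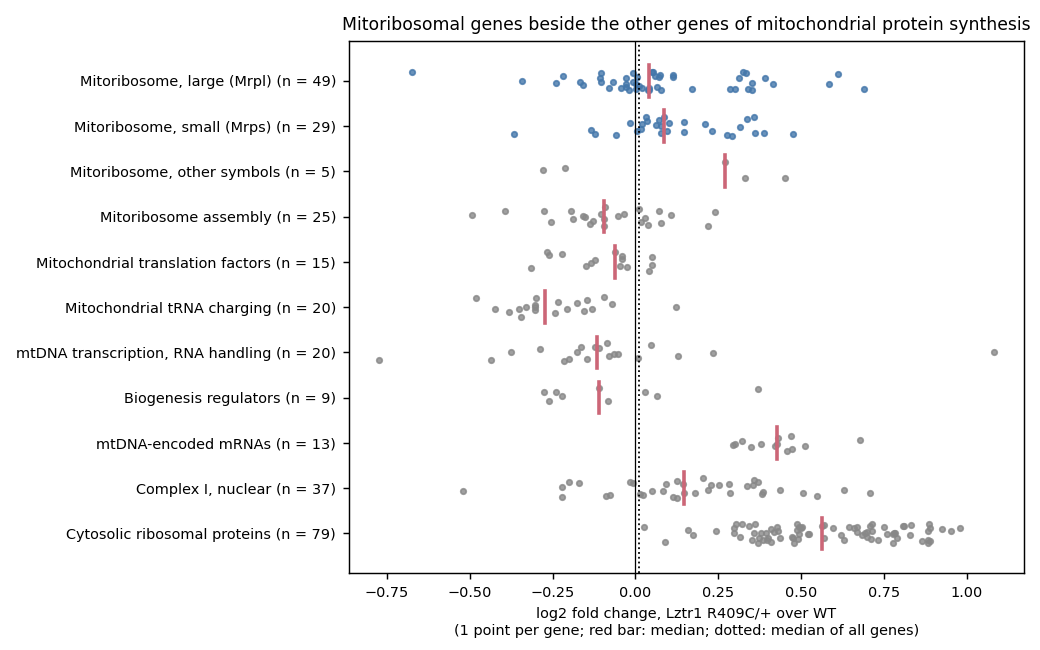
Log2 fold change (x axis, Lztr1R409C/+ over WT) of every tested gene of each list, 1 point per gene, with the list's median as a red bar and the median of all genes, 0.012, as a dotted line. The mitochondrial ribosomal genes (blue) center near zero, at 0.041 and 0.087, between the tRNA charging genes at -0.27 and the cytosolic ribosomal proteins at 0.56.

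Of the markers of other cells, those of macrophages were higher in the mutants, and only among them did any gene pass adjustment. All 10 macrophage markers were higher at an unadjusted p under 0.05, 2 of them past adjustment, and their sum was 217.1 to 243.5 CPM in WT and 365.3 to 478.6 CPM in mutant mice. All 5 erythroid markers were above zero, 3 at an unadjusted p under 0.05, with overlapping sums of 578.8 to 1479 and 1042 to 2625 CPM. The 8 cardiomyocyte markers summed to 51670 to 54800 CPM in WT and 36350 to 50290 CPM in mutant mice, and 2 of the 8 were above zero; with library totals their sums overlapped. Fibroblast markers were higher at an unadjusted p under 0.05 in 2 of 6, endothelial markers in 0 of 5, and smooth muscle and pericyte markers were lower in 2 of 5, beside 5.77% of all genes higher and 2.86% lower. Counted in either direction over the fits that each leave out 1 mouse, 1 to 5 erythroid, 1 to 2 fibroblast, and 1 to 3 smooth muscle and pericyte markers had such a p. The part of these markers in the values of the mitochondrial ribosomal genes was not tested.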

How the data were processed

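Gene expression was measured by mRNA-Seq in 3 WT and 3 mutant hearts. The authors deposited whole-number counts per gene, without normalization. The submitters' processing notes name Trim Galore, HISAT2, StringTie, edgeR, and GRCm39; versions, annotation release, and strandedness are not given in the sources used here. The deposited table of the authors' own edgeR comparison gave gene symbols only, and its fold changes and p-values were not used. Counts were analyzed in R 4.3.3 with edgeR 4.0.16: filterByExpr (17212 genes left), TMM, and the robust quasi-likelihood test, two-sided, with Benjamini-Hochberg adjustment at 0.05. The common biological coefficient of variation was 26.1%. SEs were derived from the log2 fold change and F. At these depths, 3 counts corresponded to 0.0317 to 0.0541 CPM, for counting error only. The quasi-likelihood p-values weigh the difference between genotypes against the spread among mice within a genotype, with dispersions moderated over all genes tested.

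Members and lists were chosen with earlier results of these data known. Named members are those with the smallest p (8 of the large and 6 of the small subunit), the highest 3 and lowest 2 levels per length of each subunit, the extreme changes, the stalk and cardiomyopathy genes, and the misnamed symbols; from each other list, the smallest p in each direction. Of the latter, 1 gene is not reported here. Mrpl42, Myh6, and Myl4 were named after their values were seen. Coordinates and lengths came from GENCODE vM39 (GRCm39); 60 members share exon bases with another gene, 6 of them at least 50%. Reads of such pairs, and of 6 processed pseudogenes of members (not analyzed as members), cannot be told apart from the counts. The quasi-likelihood and exact tests, DESeq2, and the length correction were run on simulated counts with the same dispersion for every gene. These counts held no length effect, so the run cannot show how well the length correction works on the real libraries. Alternatives were DESeq2 1.42.0 and its size factors, library size, upper quartile, the exact test, other filters, removal of mitochondrially encoded genes, length and (added after the data were seen) GC corrections, a replicate block, and omission of each mouse.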

Additional observations from a re-analysis of the deposited data

How the results depend on the processing

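No member passed an adjusted p of 0.05 under any alternative, the smallest being 0.163 (Mrpl20, DESeq2's Wald test). Of 22 members named for their change, 16 kept their direction throughout. With library size only, 0 members were higher and 1 was lower at an unadjusted p under 0.05, 14 large and 12 small subunit genes were above zero, the medians were -0.13 and -0.069, and the signs turned for Mrpl10 (-0.13), Mrps14 (-0.10), and Mrps22 (-0.092). Upper quartile scaling left 1 member lower. Mrpl10 was also -0.0031 with DESeq2's size factors, -0.0030 with DESeq2's test, -0.0087 without the filter, -0.10 with the length correction, and -0.048 with the GC correction. The length correction also turned Mrpl44 (-0.046). With each mouse left out in turn, members higher at an unadjusted p under 0.05 numbered 1 to 8 and those lower 0 to 2, the latter 1 without WT replicate 2 or mutant replicate 1 and 0 without WT replicate 3 or mutant replicate 2. The changes ran from -0.055 to 0.069 for Mrpl10, -0.20 to 0.085 for Mrpl11, -0.056 to 0.21 for Mrpl44, -0.049 to 0.20 for Mrps14, -0.055 to 0.27 for Mrps18a, and -0.056 to 0.21 for Mrps22. The causes were not tested.

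Deviations from the group means did not go together in same-numbered mice (r = -0.0013, 0.021, and -0.057 over 17212 genes). With 3 mice per genotype this cannot exclude a pairing, and the labels give only replicate numbers. A replicate block left 3 members higher and 1 lower, and with the length correction 2 and 1, with Mrpl10 at -0.098 and Mrpl44 at -0.022. With 3 mice per genotype, the median half-width of the 95% intervals was 0.40 on the log2 scale.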
